A study of Mus musculus with 10 samples.

Results

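FoxO transcription factors and the genes they are known to switch on in muscle wasting were followed here in mouse hearts: Foxo1, Foxo3, Fbxo32, Trim63, Txnip, Bcl2l11, Gadd45a, Gadd45b, Gadd45g and Bnip3. Every probe set to which the platform annotation gives one of these symbols alone was taken, which gave 24 of 45037 probe sets and 10 of 18193 genes. A further probe set, annotated with Foxo3 and another gene, was left out. Foxo1 has 4 probe sets, Foxo3, Fbxo32 and Gadd45b have 3 each, Txnip has 2, Bcl2l11 has 5, and the other 4 genes have 1 each. The probe set of a gene with the highest mean over all arrays is called its leading probe set. Probe sets of a gene are annotated to the same gene and are not independent of each other. Which of its transcripts each reads was not analysed here.

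RNA from hearts of male SV129 mice aged 32 weeks was measured on 10 one-colour arrays. In PKCz -/- mice (KO) osmotic minipumps delivered angiotensin II (AngII), 432 µg for each kg of body weight daily over 14 days, to give the KO AngII group (n = 2), or the mice served as PBS controls (KO PBS, n = 3). Wild-type littermates (WT) were handled in the same ways (WT AngII, n = 3; WT PBS, n = 2). Titles and design text name PBS for the controls, although their source label says they had no treatment. A single array carries its group and the number in its title, as in KO PBS 2. No label states whether a group's arrays are of different animals, so the p-values cover the spread between samples that may be technical repeats.

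PKCz is an atypical protein kinase C, and the sources used here do not say how its gene was disrupted. Prkcz, the targeted gene, has 3 probe sets. The leading one read 5.81 ± 0.07 log2 on KO arrays and 6.35 ± 0.09 on WT arrays (SD, n = 5 each), without overlap, and KO minus WT averaged over treatment was -0.53 ± 0.09 (SE; limma adjusted p = 0.126). The others differed by 0.10 ± 0.09 and -0.09 ± 0.08, so the loss of the gene was not seen on every probe set; which part of the transcript each reads was not analysed here.

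FoxO proteins are transcription factors that insulin and growth factor signalling, through the kinase Akt, keeps out of the nucleus. When that signal is low they enter the nucleus and transcribe genes of protein breakdown, autophagy, stress defence and cell death. In striated muscle their best known targets are the ubiquitin ligases atrogin-1 and MuRF1, which tag muscle proteins for the proteasome and are used as markers of atrophy. In the heart they are usually set against hypertrophic growth, which AngII, a peptide that raises blood pressure, induces.

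The promoters of Trim63, Txnip and Bcl2l11 are shown because they hold the letters GTAAACA, the core of the FoxO-binding element, on either strand. They are the 250 bases before the RefSeq gene start (GRCm38.p6, read 5′ to 3′ on the gene's strand), at chr4:134314870-134315119 (+ strand) for Trim63, chr3:96557707-96557956 (+) for Txnip and chr2:128125788-128126037 (+) for Bcl2l11. Capitals mark the motif, which in Trim63 is its reverse complement TGTTTAC.
Trim63: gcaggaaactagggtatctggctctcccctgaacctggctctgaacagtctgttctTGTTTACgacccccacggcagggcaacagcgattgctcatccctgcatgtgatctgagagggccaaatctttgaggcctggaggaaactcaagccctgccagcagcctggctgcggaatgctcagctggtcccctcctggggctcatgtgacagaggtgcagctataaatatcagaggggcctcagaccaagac
Txnip: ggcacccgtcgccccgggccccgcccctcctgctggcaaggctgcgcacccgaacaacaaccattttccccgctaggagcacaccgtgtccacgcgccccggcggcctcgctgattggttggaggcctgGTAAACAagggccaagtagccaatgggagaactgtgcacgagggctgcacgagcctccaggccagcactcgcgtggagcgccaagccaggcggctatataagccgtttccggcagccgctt
Bcl2l11: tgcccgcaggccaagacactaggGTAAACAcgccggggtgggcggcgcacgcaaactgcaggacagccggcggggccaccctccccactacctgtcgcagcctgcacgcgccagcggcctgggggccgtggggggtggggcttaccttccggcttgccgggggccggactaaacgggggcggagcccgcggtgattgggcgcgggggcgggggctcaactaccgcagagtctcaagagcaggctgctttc

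The motif begins 194 bases before the start in Trim63, 121 bases before it in Txnip and 227 bases before it in Bcl2l11. RefSeq's table gave 10 promoter windows for 9 of the 10 genes, Fbxo32 being without an entry, and 3 of the 10 held the motif, against 3.65% of all 32851 windows (1199). A match describes these letters only and is no sign of binding. The E-box CACGTG, a palindrome, stood in 3 windows, those of Gadd45b, Gadd45g and Bnip3, against 7.15% of all windows (2349); no member's window held both motifs.

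The arrays differ in ways the groups do not explain. Spiked bacterial RNAs (24 probe sets) read 6.90 to 7.08 log2 on KO AngII 3, KO AngII 4 and KO PBS 4 (low batch) and 12.86 to 13.33 on the other 7 arrays (high batch). The 3′ minus 5′ difference of the actin control probe sets, a sign of RNA quality and of labelling, separates the same arrays: it was 0.74 to 0.83 log2 in the low batch and 0.92 to 1.70 in the high batch, with WT PBS 5 at 1.70. Both KO AngII arrays lie at the low end of this measure, so it moves with every KO AngII value given here, and its part in them was not tested. A value given as blocked has this batch as a block in the fit, and for KO AngII it rests on KO PBS 4 as the only link between batches. WT AngII 2 stood apart with extracellular matrix genes 2.13 above the mean of the arrays, against -0.63 to 0.29 on the others. Its fibroblast markers (10 genes, mean deviation 1.13) and macrophage markers (10 genes, 1.04) were also the highest, against -0.39 to 0.26 and -0.41 to 0.12 on the other 9 arrays. The cardiac transcripts Myh6 (14.32 to 14.49 log2) and Tnnt2 (14.25 to 14.36) were near the top of the scale on every array. The skeletal muscle transcripts Myh4 (5.65 to 6.09) and Actn3 (6.06 to 6.56) lay near the median of all probe sets, 6.19. Not every marker was so placed. The skeletal muscle markers Mylpf (6.80 to 7.36) and Myl1 (9.06 to 11.20) read higher, and the cardiomyocyte marker Myl7 (5.74 to 6.36) read near the median. In bulk tissue, fewer cells of a type and less RNA per cell cannot be told apart.

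No probe set of the 10 genes passed limma's adjusted p of 0.05 in any of 7 comparisons, and 1 to 7 of the 24 had an unadjusted p under 0.05, so the values that follow describe these arrays. Under AngII the KO hearts read lower than under PBS for 21 of the 24 probe sets, where 53.8% of all probe sets read higher. These counts are from the fit without the batch. With the batch as a block every Foxo3 probe set read higher instead (0.15, 0.36 and 0.13). The median was -0.23 log2 against 0.02 over all probe sets. The largest differences in KO hearts were in Bcl2l11, Txnip and Fbxo32. In WT hearts the 24 probe sets were divided, 13 above and 11 below 0, with a median of 0.02 against 0.01 over all, and Gadd45g gave the largest difference. Much of the spread lay within the KO PBS group, where KO PBS 2 read below KO PBS 3 and KO PBS 4 for most of the target genes.

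**Figure D1:**
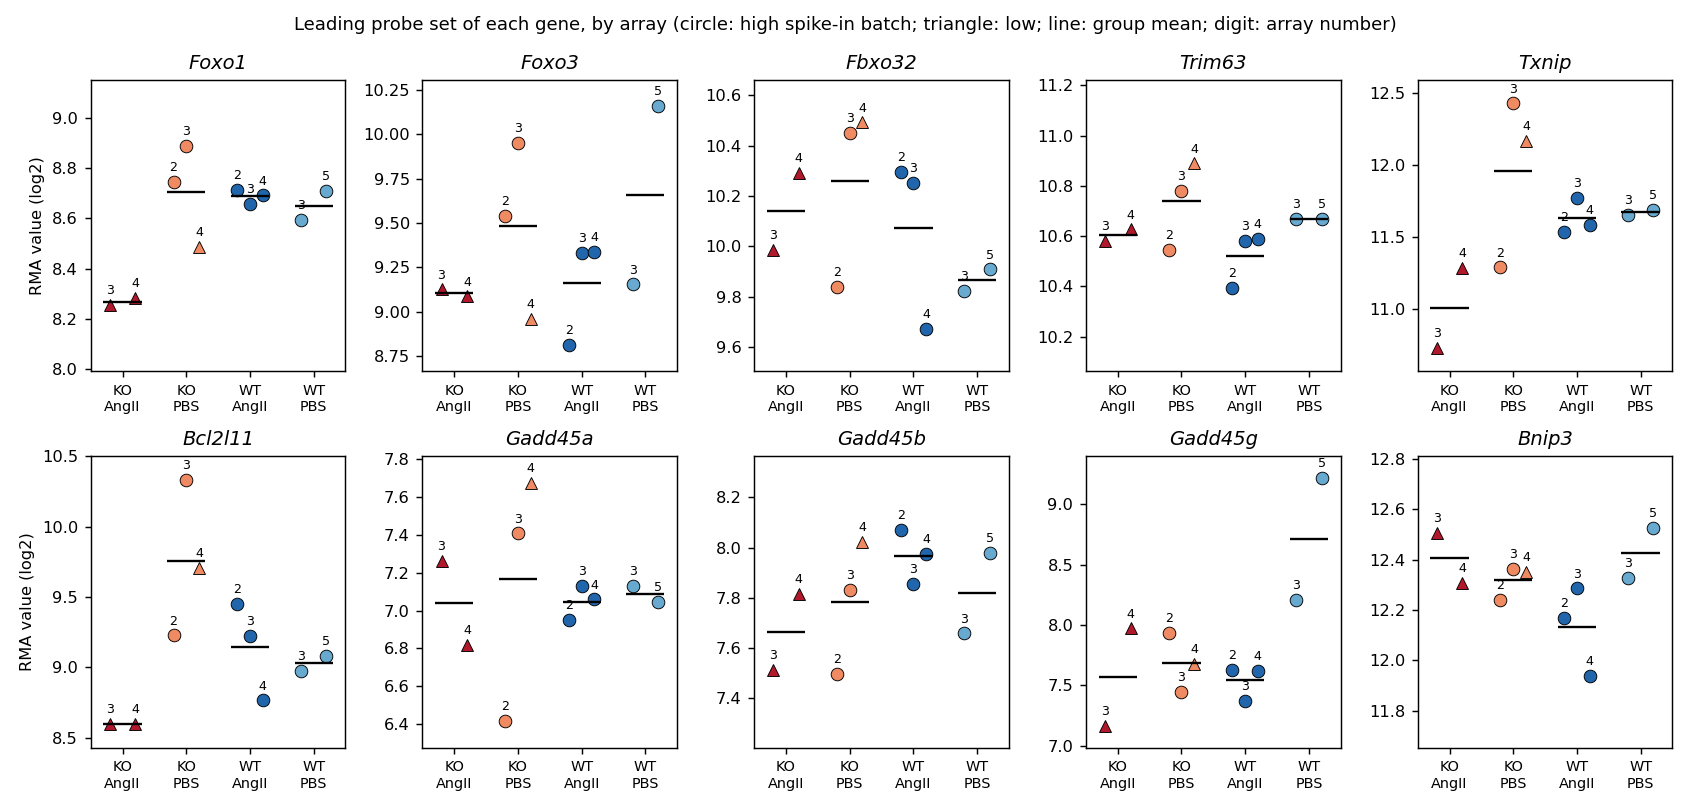
RMA values (log2) of the leading probe set of each of the 10 genes on every array, in KO AngII, KO PBS, WT AngII and WT PBS hearts; points are arrays with their title number, triangles mark the low spike-in batch, and lines are group means. Both KO AngII arrays, which are of the low batch, lie below the other 8 for Foxo1, Bcl2l11 and, by a small margin, Txnip. Both WT PBS arrays lie above the other 8 for Gadd45g. The share of all probe sets with such an order is not given here.

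Foxo1 is the factor most tied to metabolic control by insulin. Its leading probe set (1416983_s_at) read 8.26 and 8.28 log2 on the KO AngII arrays, against 8.75, 8.89 and 8.49 on the KO PBS arrays. In WT hearts it read 8.71, 8.66 and 8.69 under AngII, against 8.59 and 8.71 under PBS. Both KO AngII arrays were below every other array, while the WT groups overlapped. The AngII minus PBS difference was -0.44 ± 0.15 (SE) in KO hearts (limma adjusted p = 0.892) and 0.04 ± 0.15 in WT hearts (adjusted p = 0.99). With the batch as a block the KO difference was -0.22. KO minus WT under AngII was -0.42 ± 0.15 (limma adjusted p = 0.734), and -0.09 with the block. The low batch moves with this result, since KO PBS 4, the only low-batch array of the PBS groups, was also the lowest of the KO PBS and WT arrays. Beyond the blocked values its part in the result was not tested. The other 3 Foxo1 probe sets differed by -0.24 to 0.11 between AngII and PBS in KO hearts and by -0.18 to 0.01 in WT hearts. On the mean of the 4 the KO difference was -0.20.

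Foxo3, the factor best known for driving atrophy genes in muscle, had wide ranges within 3 of its 4 groups. Its leading probe set (1434831_a_at) read 9.13 and 9.09 on the KO AngII arrays, against 9.54, 9.95 and 8.96 on the KO PBS arrays. The WT hearts read 8.81, 9.33 and 9.34 under AngII, against 9.15 and 10.16 under PBS. The groups overlapped in both genotypes. The AngII minus PBS difference was -0.38 ± 0.32 in KO hearts (95% interval -1.07 to 0.31) and -0.50 ± 0.32 in WT hearts (-1.19 to 0.19), with limma adjusted p of 0.899 and 0.93. The WT value was 0.01 without WT PBS 5, the array at 10.16, and it was larger without WT PBS 3. With the batch as a block the KO value was 0.15. Without KO PBS 3 it was -0.14, and without KO PBS 4 it was -0.64. On the other probe sets, 1434832_at differed by -0.22 in KO and -0.06 in WT hearts, and 1450236_at by -0.03 and 0.06. With the batch as a block their KO values were 0.36 and 0.13.

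Fbxo32 encodes atrogin-1, the substrate-binding subunit of a ubiquitin ligase. Its 3 probe sets did not give the same picture. The leading one (1435265_at) read 9.99 and 10.29 on the KO AngII arrays, against 9.84, 10.45 and 10.49 on the KO PBS arrays, and 10.30, 10.25 and 9.67 on the WT AngII arrays, against 9.82 and 9.91 on the WT PBS arrays. Groups overlapped in both genotypes, and the AngII minus PBS differences were -0.12 ± 0.23 in KO hearts (blocked -0.35) and 0.21 ± 0.23 in WT hearts. The second (1448747_at) read 9.93 and 9.43 on the KO AngII arrays, against 9.81, 10.49 and 10.37 on the KO PBS arrays. In WT hearts it read 10.60, 10.02 and 10.17 under AngII, against 9.69 and 9.80 under PBS, so that every WT AngII array was above both WT PBS arrays. Here the differences had opposite signs, -0.54 ± 0.23 in KO hearts (limma adjusted p = 0.892) and 0.52 ± 0.23 in WT hearts (0.93), and their own difference was -1.06 ± 0.33 (limma adjusted p = 1). The third (1417522_at) read 8.29 and 7.98 on the KO AngII arrays, against 8.36, 9.55 and 9.11 on the KO PBS arrays. It was lower on both KO AngII arrays than on any of the other 8, which in WT hearts read 9.01, 8.95 and 8.76 under AngII, against 8.56 and 8.78 under PBS. Its AngII minus PBS difference was -0.87 ± 0.27 in KO hearts (limma adjusted p = 0.892; blocked -0.97), against 0.24 ± 0.27 in WT hearts. KO minus WT under AngII was 0.07 ± 0.23 on the leading probe set, -0.58 ± 0.23 on 1448747_at and -0.77 ± 0.27 on 1417522_at, each with a limma adjusted p of 0.734 or more. With the batch as a block these values were -0.28, -0.80 and -0.92, all below 0.

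Trim63 encodes MuRF1, the ubiquitin ligase that binds titin and other sarcomere proteins. Its single probe set was the steadiest of the ligase readings, with 10.58 and 10.63 on the KO AngII arrays, against 10.55, 10.78 and 10.89 on the KO PBS arrays. WT hearts read 10.40, 10.58 and 10.59 under AngII, against 10.67 and 10.67 under PBS. The KO groups overlapped, while all 3 WT AngII arrays were below both WT PBS arrays by a small margin. The AngII minus PBS difference was -0.13 ± 0.13 in KO hearts (95% interval -0.43 to 0.16) and -0.15 ± 0.13 in WT hearts (-0.44 to 0.15), with limma adjusted p of 0.905 and 0.935. The difference between these effects was 0.01 ± 0.19 (95% interval -0.40 to 0.42).

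Txnip encodes an arrestin-fold protein that inhibits thioredoxin and holds back glucose uptake. Its leading probe set (1415996_at) read 10.73 and 11.28 on the KO AngII arrays, against 11.29, 12.43 and 12.17 on the KO PBS arrays. WT hearts read 11.53, 11.77 and 11.58 under AngII, against 11.66 and 11.69 under PBS. The KO AngII arrays were the lowest of the 10, although KO AngII 4 (11.28) and KO PBS 2 (11.29) all but met, and the WT groups overlapped. AngII minus PBS was -0.95 ± 0.27 in KO hearts (limma adjusted p = 0.892; blocked -1.16), against -0.04 ± 0.27 in WT hearts. The difference of these effects was -0.91 ± 0.38 (limma adjusted p = 1). KO minus WT under AngII was -0.62 ± 0.27 (limma adjusted p = 0.734). Without KO AngII 3 it was -0.34. The second probe set (1415997_at) differed by -0.33 ± 0.45 in KO hearts and 0.48 ± 0.45 in WT hearts, and with the batch as a block the KO value was -1.33. Its KO minus WT difference under AngII was 0.01 ± 0.45, and -1.48 with the block. It read 10.43 and 10.77 on the KO AngII arrays, against 9.88, 10.99 and 11.93 on the KO PBS arrays, and KO PBS 2 was again the lowest of them.

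Bcl2l11 encodes Bim, a BH3-only protein that triggers mitochondrial cell death. It gave the smallest unadjusted p of the genes in KO hearts. The leading probe set (1456005_a_at) read 8.60 and 8.60 on the KO AngII arrays, against 9.23, 10.33 and 9.70 on the KO PBS arrays. WT hearts read 9.45, 9.22 and 8.77 under AngII, against 8.98 and 9.08 under PBS. Both KO AngII arrays were below all the others and the WT groups overlapped. AngII minus PBS was -1.16 ± 0.28 in KO hearts (95% interval -1.76 to -0.55, limma adjusted p = 0.892; blocked -1.11) and 0.12 ± 0.28 in WT hearts. The difference of these effects was -1.27 ± 0.39 (limma adjusted p = 1; blocked -1.22). Under PBS the KO hearts were also higher than WT, by 0.72 ± 0.28 (limma adjusted p = 0.745), and by 0.44 without KO PBS 3. The other 4 probe sets differed between AngII and PBS in KO hearts by -0.84 ± 0.31 (1435448_at, unadjusted p under 0.05), -0.25, -0.27 and 0.22, and in WT hearts by -0.02, 0.21, 0.41 and -0.03. The mean of the 5 differed by -0.46 in KO hearts.

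Bnip3 encodes a mitochondrial BH3 protein that FoxO and hypoxia induce and that marks mitochondria for autophagy. Its probe set read 12.51 and 12.31 on the KO AngII arrays, against 12.24, 12.36 and 12.35 on the KO PBS arrays. WT hearts read 12.17, 12.29 and 11.94 under AngII, against 12.33 and 12.53 under PBS. The WT AngII arrays were all below the WT PBS arrays, and the KO groups overlapped. AngII minus PBS was 0.09 ± 0.12 in KO hearts and -0.30 ± 0.12 in WT hearts (limma adjusted p = 0.93), and the difference of these effects was 0.39 ± 0.17 (limma adjusted p = 1). Without WT PBS 5 the WT value was -0.20. KO minus WT under AngII was 0.28 ± 0.12 (limma adjusted p = 0.734), and it was 0.18 without KO AngII 3 and 0.18 without WT AngII 4.

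The Gadd45 genes encode small stress sensors that bind cell cycle and MAP kinase proteins. Gadd45a, which FoxO factors and p53 induce, read 7.26 and 6.82 on the KO AngII arrays, against 6.42, 7.41 and 7.68 on the KO PBS arrays. In WT hearts it read 6.95, 7.13 and 7.06 under AngII, against 7.13 and 7.05 under PBS. The KO PBS arrays spanned all the others, and AngII minus PBS was -0.13 ± 0.30 in KO hearts (blocked -0.64) and -0.04 ± 0.30 in WT hearts. The KO value was 0.10 without KO AngII 4, 0.13 without KO PBS 4 and -0.50 without KO PBS 2.

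Gadd45b, induced by TGF-beta and NF-kB, read 7.51 and 7.81 on the KO AngII arrays, against 7.50, 7.83 and 8.02 on the KO PBS arrays. WT hearts read 8.07, 7.85 and 7.98 under AngII, against 7.66 and 7.98 under PBS. Groups overlapped in both genotypes, and AngII minus PBS was -0.12 ± 0.19 in KO hearts (blocked -0.36) and 0.15 ± 0.19 in WT hearts. Of its other probe sets, 1449773_s_at read 7.11 and 7.24 on the KO AngII arrays, against 7.96, 7.61 and 7.83 on the WT AngII arrays, which did not overlap. KO minus WT under AngII was -0.62 ± 0.25 there (limma adjusted p = 0.734), against -0.30 ± 0.19 on the leading probe set and -0.13 on 1420197_at. The blocked values were -0.92, -0.66 and -0.17.

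Gadd45g, the third relative, gave the largest AngII difference of the set in WT hearts. It read 7.17 and 7.97 on the KO AngII arrays, against 7.94, 7.45 and 7.68 on the KO PBS arrays. WT hearts read 7.63, 7.37 and 7.62 under AngII, against 8.21 and 9.22 under PBS. The WT PBS arrays were above the other 8, and the KO groups overlapped. AngII minus PBS was -0.12 ± 0.30 in KO hearts and -1.17 ± 0.30 in WT hearts (limma adjusted p = 0.877), and KO minus WT under PBS was -1.03 ± 0.30 (limma adjusted p = 0.628). Without WT PBS 5 these WT and PBS values were -0.66 and -0.52. Immediate early genes, which stimuli induce within minutes, were highest on the same arrays. Their mean deviation over 25 genes was 0.54 and 0.99 on WT PBS 3 and WT PBS 5, against -0.68 to 0.14 on the other 8 arrays. Among those 8 the order differed from that of Gadd45g. KO AngII 4, with Gadd45g at 7.97, had a mean deviation of -0.35, and KO AngII 3, at 7.17, had -0.29. The 18S ribosomal signal was 6.60 to 8.01 on the other 8 arrays, against 9.16 and 8.07 on the WT PBS arrays. The actin 3′ minus 5′ difference was 1.17 on WT PBS 3 and 1.70, the highest of the 10, on WT PBS 5. Their part in the Gadd45g difference was not tested.

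**Figure D2:**
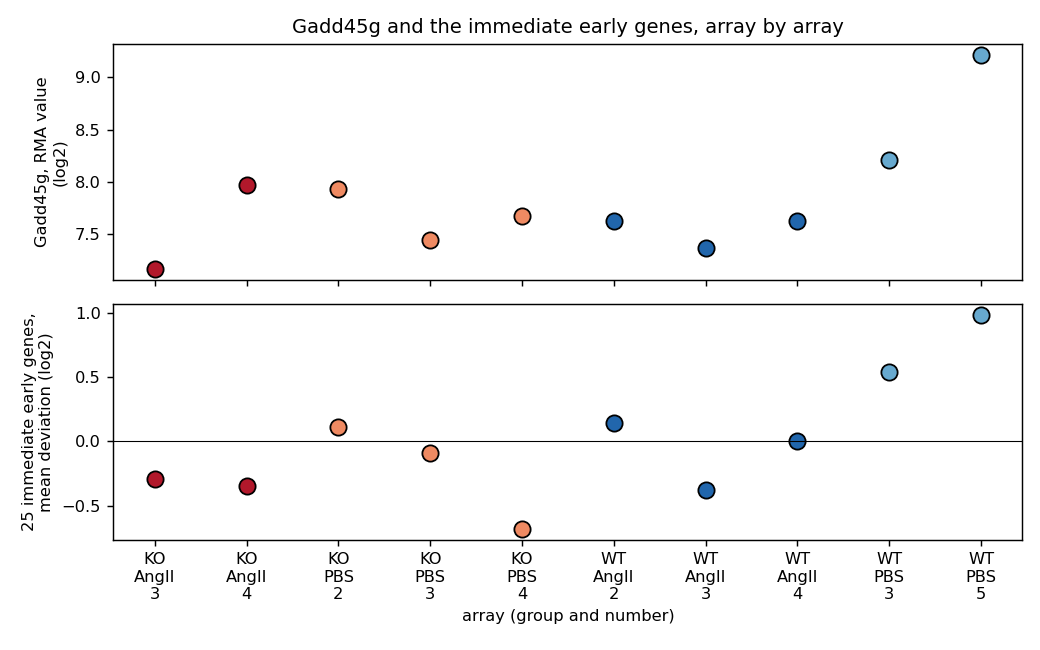
Gadd45g (upper panel, RMA value, log2) and the mean deviation of 25 immediate early genes from their means over the 10 arrays (lower panel, log2), array by array in KO AngII, KO PBS, WT AngII and WT PBS hearts. WT PBS 5 is the highest array in both panels and WT PBS 3 the next.

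Set side by side over the whole set, an unadjusted p under 0.05 was reached in KO hearts under AngII by 6 of the 24 probe sets, all lower, from Foxo1, Fbxo32, Txnip and Bcl2l11, where 4.57% of all probe sets reached it. In WT hearts 3 of 24 reached it, where 5.23% of all did. After adjustment both shares over all probe sets were 0% (0 of 45037 in each). With the batch as a block the KO count was 5 of 24, where 0.908% of all probe sets reached the threshold. The KO count changed with the arrays used. It was 11 without KO PBS 2, where 3.74% of all probe sets reached the threshold, and 4 without KO PBS 3, where 1.97% did. The WT count was 1 without WT AngII 4, where 4.51% of all probe sets reached the threshold.

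**Figure D3:**
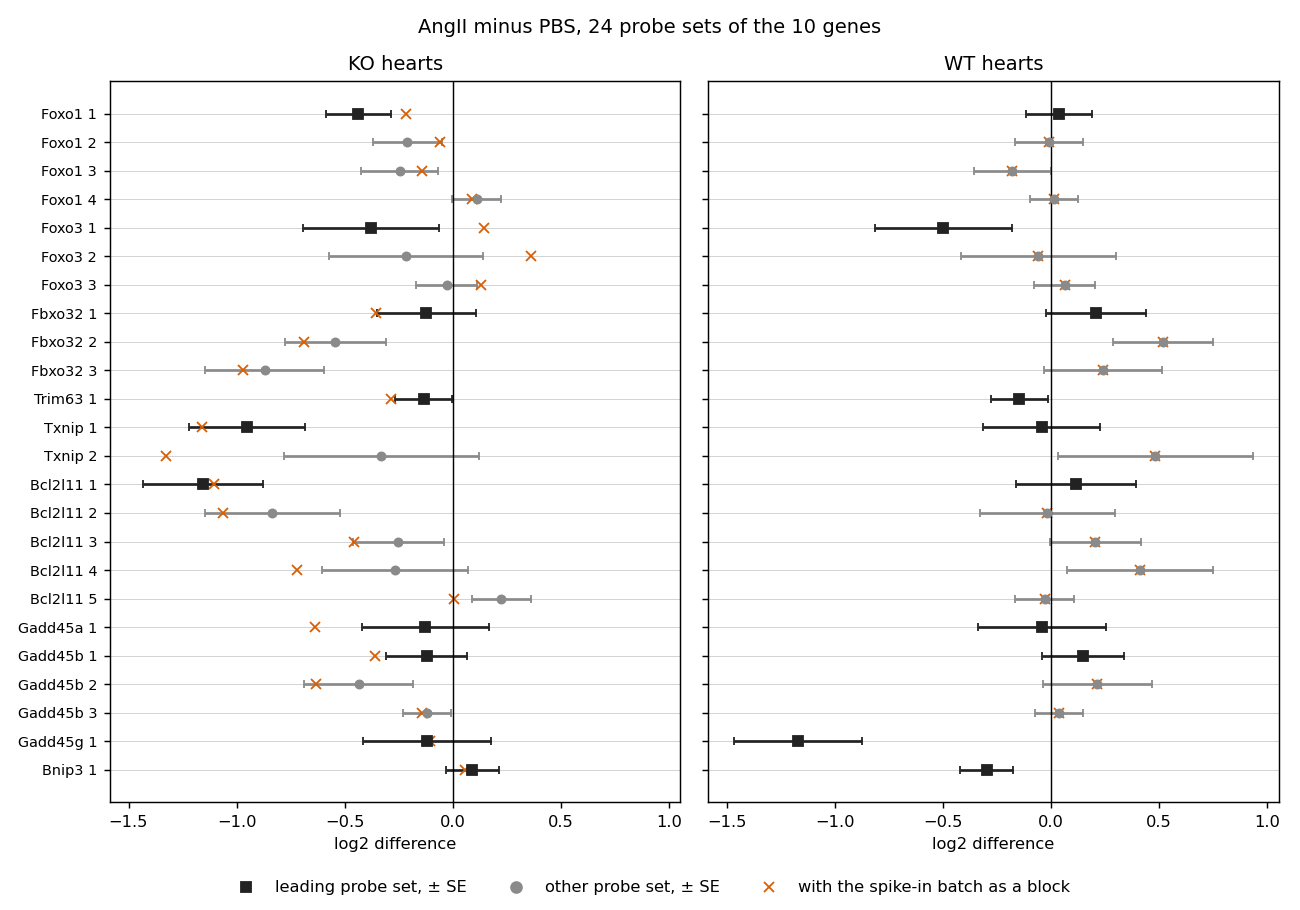
AngII minus PBS (log2 difference ± SE) for the 24 probe sets of the 10 genes in KO hearts (left) and WT hearts (right), numbered within a gene by falling mean level, with squares for leading probe sets and crosses for the fit with the spike-in batch as a block. In KO hearts 21 of 24 lie below 0 without the block, with Bcl2l11 at -1.16 and Txnip at -0.95, where 53.8% of all probe sets lie above 0. The Foxo3 crosses lie above 0 there. In WT hearts Gadd45g stands lowest at -1.17.

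The interaction asks whether the AngII effect differed between genotypes. It reached an unadjusted p under 0.05 for 7 probe sets of 6 genes, 2 above and 5 below 0, where 1.64% of all probe sets did; after adjustment 0% of all did. Above 0 were Gadd45g (1.05 ± 0.42, and 0.55 without WT PBS 5) and Bnip3 (0.39 ± 0.17), and below 0 were Bcl2l11, Txnip, Foxo1 and both dimmer Fbxo32 probe sets. The count was 3 without KO PBS 3 and 4 without KO AngII 3, KO AngII 4, WT AngII 3, WT PBS 3 or WT PBS 5. Averaged over genotype, AngII minus PBS reached it for 3 probe sets, all lower, Gadd45g (-0.64 ± 0.21), Bcl2l11 (-0.52 ± 0.20) and Txnip (-0.50 ± 0.19), each with a limma adjusted p of 0.483 to 0.493; over all probe sets the share was 9.62%, and 0% after adjustment. That count was 5 without KO PBS 2 or KO PBS 4, where 8.01% and 14.1% of all probe sets reached the threshold. It was 2 without KO PBS 3 or WT AngII 4, where 6.08% and 7.71% did.

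Between genotypes under PBS, 2 of the 24 probe sets reached an unadjusted p under 0.05, Bcl2l11 higher and Gadd45g lower in KO, where 6.29% of all did. Under AngII 6 did, where 6.51% of all did: Bnip3 was higher, and Foxo1, Txnip, 2 probe sets of Fbxo32 and 1 of Gadd45b were lower in KO. Averaged over treatment only Gadd45g did (-0.50 ± 0.21, limma adjusted p = 0.384), where 12.4% of all did. After adjustment the shares over all probe sets were 0.0133% under PBS, 0.0111% under AngII and 0.0444% averaged. Under AngII the count was 2 with the batch as a block, where 1.65% of all probe sets reached the threshold. It was 4 without WT AngII 2 or WT AngII 4, where 5.53% and 6.35% of all did. Under PBS it was 11 without KO PBS 2 (5.24% of all probe sets), 5 without WT AngII 2 (9.78%) and 1 without KO PBS 3 (9.25%). The averaged count was 6 without KO PBS 2 (10.5% of all) and 2 without WT AngII 2 (11.4%). It was 0 without KO PBS 3 (16.5%), KO PBS 4 (8.89%) or WT AngII 4 (11.7%). These comparisons share arrays with the AngII comparisons and are not independent of them.

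**Figure D4:**
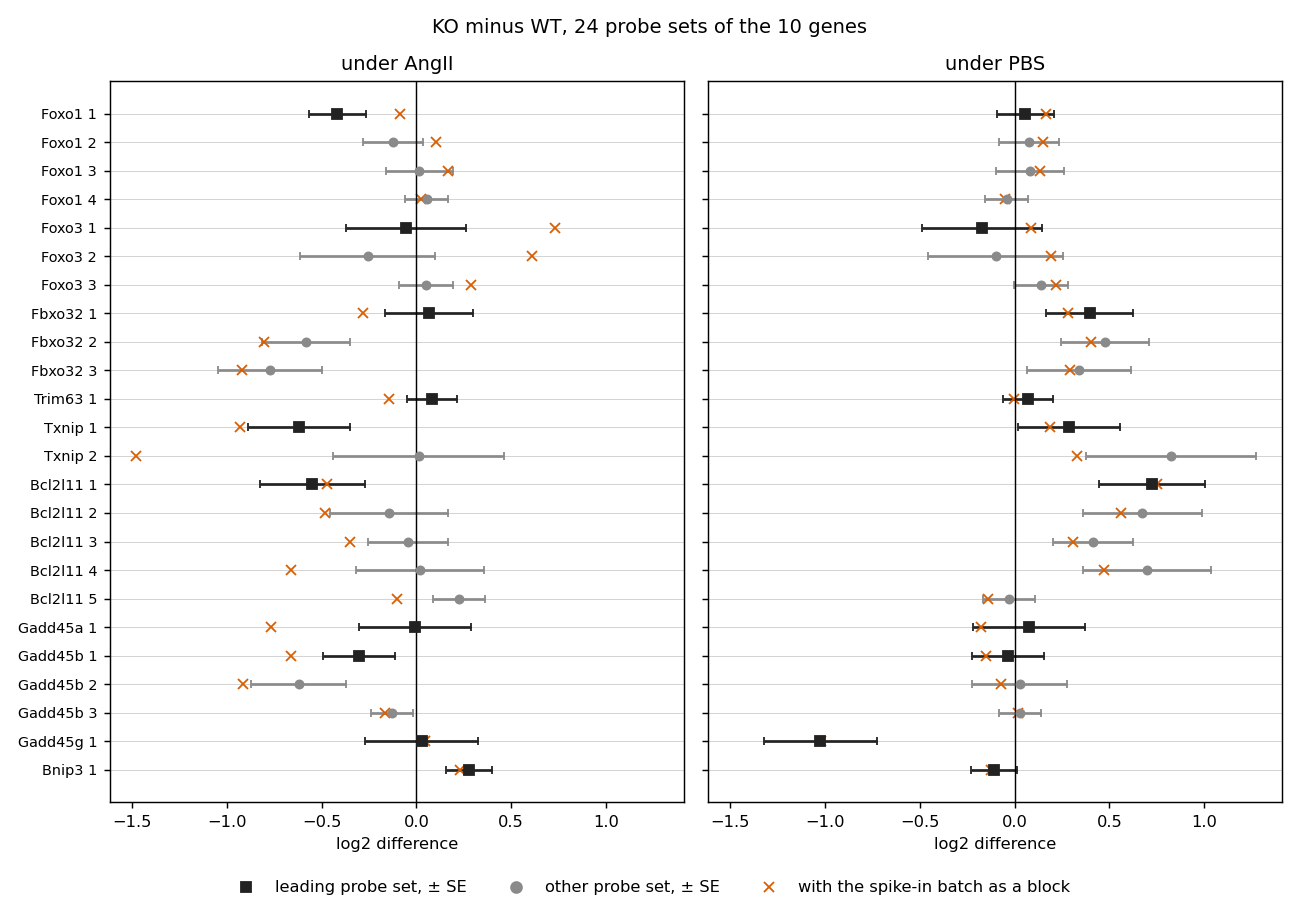
KO minus WT (log2 difference ± SE) for the 24 probe sets of the 10 genes under AngII (left) and under PBS (right), numbered within a gene by falling mean level, with squares for leading probe sets and crosses for the fit with the spike-in batch as a block. Under AngII 14 of 24 lie below 0, where 57.5% of all probe sets lie above 0. Under PBS 17 lie above 0, where 53.5% of all probe sets do, and by leading probe set 6 of the 10 genes do. Gadd45g stands lowest under PBS at -1.03.

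The spread within the KO PBS group was wide for these genes. Over the 10 leading probe sets the median within-group SD was 0.316 log2 in KO PBS hearts, where it was 0.15 over all probe sets. In KO AngII hearts it was 0.176 where all probe sets gave 0.0784, also above it. In WT hearts it lay below that of all probe sets, with 0.136 under AngII where all gave 0.166, and 0.0793 under PBS where all gave 0.098. KO PBS 3 and KO PBS 4 were both above KO PBS 2 for 15 of the 24 probe sets (62.5%), where this held for 36.8% of all probe sets. At the median KO PBS 3 was 0.37 and KO PBS 4 was 0.41 above KO PBS 2, against 0.05 and 0.03 over all. The leading probe sets of Fbxo32, Trim63, Txnip, Bcl2l11, Gadd45a, Gadd45b and Bnip3 followed this order, whereas Foxo1 and Foxo3 were lowest on KO PBS 4 and Gadd45g was highest on KO PBS 2. KO PBS 2 and KO PBS 3 belong to the high batch and KO PBS 4 to the low one; the part of the batch in this order was not tested. Without KO PBS 2, AngII minus PBS in KO hearts was -1.29 for Txnip and -1.42 for Bcl2l11. Dropping other arrays made it smaller, down to -0.68 for Txnip without KO AngII 3 and -0.87 for Bcl2l11 without KO PBS 3.

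**Figure D5:**
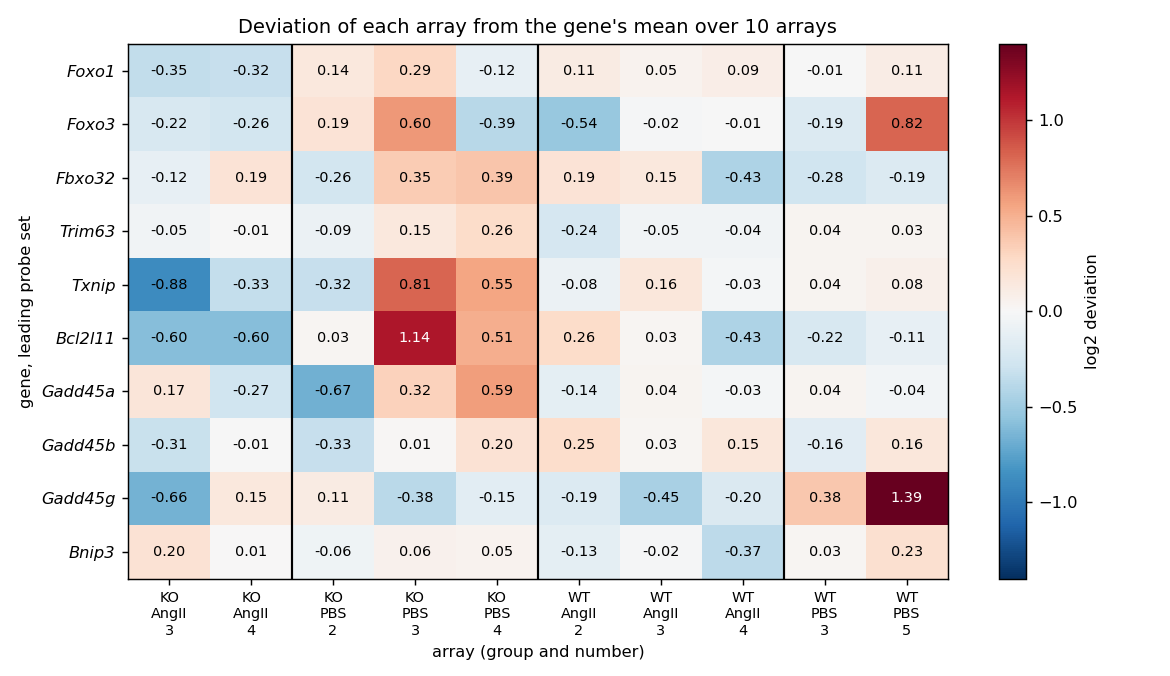
Deviation of each array (columns, grouped as KO AngII, KO PBS, WT AngII and WT PBS) from the gene's mean over the 10 arrays (rows, leading probe sets), in log2, with red above and blue below the mean. KO PBS 3 is above the mean for 9 of 10 genes and KO PBS 2 for 4, and KO AngII 3 is above it for 2.

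The wider FoxO pathway was read through lists of genes, each gene by its leading probe set. Of 26 other FoxO targets measured, 0 passed the adjusted threshold in KO or in WT hearts under AngII; at an unadjusted p under 0.05 stood 3 in each, all lower, and the medians were -0.13 and -0.06 log2 (-0.01 and 0.00 over all genes). Of all 18193 genes 4.36% in KO and 5.42% in WT hearts had such a p. In KO hearts these were Klf15, a Kruppel-like factor of amino acid and lipid metabolism (-0.59 ± 0.18), Bcl6, a transcriptional repressor (-0.78 ± 0.24), and Insr, the insulin receptor (-0.44 ± 0.15). In WT hearts they were Pdk4, the kinase that restrains pyruvate oxidation (-1.41 ± 0.35), Irs2, an adaptor of the insulin receptor (-1.43 ± 0.46), and Insr (-0.42 ± 0.15). Irs2 read 6.71, 6.44 and 6.81 on the WT AngII arrays, against 7.08 and 9.09 on the WT PBS arrays, so its size lay mostly in WT PBS 5.

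Insr was lower under AngII by a similar amount in both genotypes. It read 9.76 and 9.33 on the KO AngII arrays, against 9.92, 10.13 and 9.89 on the KO PBS arrays. In WT hearts it read 9.80, 9.74 and 9.83 under AngII, against 10.21 and 10.22 under PBS. The groups did not overlap in either genotype, yet the limma adjusted p was 0.892 in KO and 0.93 in WT hearts. With the batch as a block the KO difference was -0.35. Insr was named for its small unadjusted p, and the share of all probe sets with such an order is not given here.

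Of 20 measured regulators of FoxO (insulin and Akt signalling, 14-3-3 proteins, deacetylases), 1 passed in any comparison. Sirt1, an NAD-dependent deacetylase that acts on FoxO proteins, fell by 1.09 ± 0.16 log2 in KO averaged over treatment (limma adjusted p = 0.0425), and stood at -1.15 with the batch as a block (adjusted p = 1). It was also lost with the title number as a block (-1.02, adjusted p = 0.614) and with eBayes without trend (adjusted p = 0.0758). Of the fits that drop an array, the call was kept without WT AngII 2 or WT AngII 3 (-1.06 and -1.18). It was lost without any other array: -1.09 without KO AngII 3, -1.09 without KO AngII 4, -1.01 without KO PBS 2, -1.15 without KO PBS 3, -1.11 without KO PBS 4, -1.03 without WT AngII 4, -1.20 without WT PBS 3 and -0.98 without WT PBS 5. It read 6.36 and 6.37 on the KO AngII arrays and 6.48, 7.03 and 6.85 on the KO PBS arrays, against 7.53, 7.04 and 7.65 on the WT AngII arrays and 7.72 and 8.15 on the WT PBS arrays. KO and WT arrays did not overlap, and KO PBS 3 (7.03) all but met WT AngII 3 (7.04). Under AngII against PBS, 0 regulators passed, with medians of -0.16 in KO hearts (blocked -0.09) and -0.19 in WT hearts. At an unadjusted p under 0.05 stood 1 in KO hearts, Akt2, the insulin-responsive Akt (-0.41 ± 0.18, limma adjusted p = 0.892), which was at -0.09 with the batch as a block. In WT hearts 2 did, Prmt1, an arginine methyltransferase that acts on FoxO1 (8.03, 7.22 and 8.32 on the WT AngII arrays, against 9.15 and 8.57 on the WT PBS arrays), and Sirt1 (-0.53 ± 0.22), both with a limma adjusted p of 0.93.

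The functional neighbours of the target genes gave 0 calls in either genotype under AngII. A list of muscle ubiquitin ligases, which also holds ubiquitin-conjugating enzymes such as Ube2d2a, had 18 other genes measured. Their median AngII minus PBS difference was -0.18 in KO hearts (blocked -0.08) and -0.05 in WT hearts. Only Cblb, a ligase of growth factor receptors, had an unadjusted p under 0.05 (-0.47 ± 0.21 in KO). Of 22 autophagy genes 0 did in either genotype, with medians of 0.03 in KO (blocked -0.02) and -0.01 in WT hearts. Of 11 thioredoxin and arrestin-domain genes the medians were -0.10 in KO (blocked 0.00) and -0.19 in WT hearts, and 2 and 3 had such a p, all below 0. In KO hearts these were Txnrd2, the mitochondrial thioredoxin reductase (-0.40 ± 0.17, blocked -0.26), and Arrdc3, a relative of Txnip (-0.52 ± 0.22). In WT hearts they were Mlxip, a glucose-sensing factor that induces Txnip (-0.45 ± 0.16), Arrdc3 (-0.57 ± 0.22) and Txnrd1, the cytosolic thioredoxin reductase (-0.45 ± 0.18). Of 13 other BCL2 family genes the medians were -0.03 in KO (blocked 0.11) and 0.03 in WT hearts, and Mcl1, which restrains Bim, was at -0.33 ± 0.13 in KO hearts.

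The genes whose pattern over the 10 arrays was most like that of a member were found by Pearson correlation among 12122 genes at or above the median level. The arrays share their batch and their outliers, so these values describe the arrays alone. For Fbxo32 they were Brd8 (r = 0.903), Tcp11l2 (0.902) and Ccng2 (0.894), the last a cyclin that is itself on the list of other FoxO targets. For Gadd45g they included Atf3, a stress-induced transcription factor (0.899), and for Txnip they included Nr1d2, a nuclear receptor of the circadian clock (0.893), behind Med30 (0.919) and Mef2d (0.897). Trim63 was closest to Prkag1, a subunit of the AMP-activated kinase (0.939), and Agtr1a, an AngII receptor (0.938). Foxo1 was closest to Dolk (0.956), Foxo3 to Wnk2 (0.961), Bcl2l11 to Prickle1 (0.922), Gadd45a to Abraxas1 (0.916), Gadd45b to Rock1 (0.931) and Bnip3 to Saysd1 (0.883).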

How the data were processed

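The authors deposited log2 expression values for 45101 probe sets, computed with RMA per the submitters' processing notes, which name no version. Per the labels, biotinylated cRNA came from 6 µg of total RNA. RMA draws the arrays to one distribution, and its values compress small differences at low signal. Arrays have no read depth; with so few of them, precision is low.

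After removal of 64 control probe sets, limma 3.58.1 (R 4.3.3) was fitted to 45037 probe sets, with 4 group means (lmFit), a trended eBayes prior and two-sided tests. Adjustment was by Benjamini-Hochberg over these probe sets, and "called" or "passed" stands for an adjusted p under 0.05. The script was tested on simulated arrays. The platform annotation gave 34945 probe sets 1 symbol, 932 several and 9160 none, and the RefSeq gene table (GRCm38.p6) updated 34741 by Entrez identifier.

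All 10 genes are named. Another probe set is given where its unadjusted p is under 0.05 or its sign differs, and from a list the called genes or up to 3 of smallest unadjusted p. For each member the 3 genes of highest correlation were computed. Members and lists were chosen with earlier results of these data known. Same-numbered arrays of different groups did not deviate together (r = -0.355 to 0.103, 10 pairs), so the numbers were not taken to pair the arrays. Alternatives were the spike-in batch and the title number as blocks, eBayes without trend or robust, array weights, 2 other normalisations, a filter on dim probe sets, a fit on the compared groups alone, averaging all probe sets of a gene, and dropping each array in turn. Dropping WT AngII 2 with the batch as a block was added after seeing the data. Where this left 1 array in a group, its spread was taken from the other groups.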

Additional observations from a re-analysis of the deposited data

Results flagged for a closer look

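For Foxo1 the AngII effect differed in sign between the genotypes on the leading probe set only, where the WT value was near 0 (0.04 ± 0.15, SE). The other Foxo1 probe sets had the same sign in both genotypes. In KO and WT hearts they gave -0.21 and -0.01 (1416981_at), -0.24 and -0.18 (1416982_at), and 0.11 and 0.01 (1456529_at). On the leading probe set each array under AngII was set against the mean of its PBS group. Both KO AngII arrays lay below the KO PBS mean, by differences of -0.45 and -0.42 log2, and the 3 WT AngII arrays lay above the WT PBS mean, by 0.00 to 0.06. The interaction was -0.47 ± 0.21 (limma adjusted p = 1; its unadjusted p was under 0.05), and -0.25 with the spike-in batch as a block.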

How the results depend on the processing

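Leading probe sets gave 19 differences with an unadjusted p under 0.05 in the fit on all 10 arrays. Their 382 values under 21 alternative settings kept their direction in each case, and 380 stayed on the same side of the adjusted threshold. The 19 were selected on these same arrays, so the kept direction is no independent support. Differences of other probe sets are not in this count. The exceptions came with array weights, for Foxo1 (-0.42, adjusted p = 0.0257) and Bnip3 (0.44, 0.0195) in KO minus WT under AngII. With these weights 4 probe sets of the genes were called there, also 1417522_at of Fbxo32 (-0.65, 0.0444) and 1449773_s_at of Gadd45b (-0.64, 0.0377), among 2911 of all probe sets (6.46%); WT AngII 4 then weighed 7.2 and WT AngII 2 weighed 0.225. The other counts of called member probe sets stayed at 0 in the alternatives run. With the title number as a replicate block 0 were called in each of the 7 comparisons, and Bnip3 stood at -0.09 for AngII in WT. The counts at an unadjusted p under 0.05 became 1 for AngII in WT (2.2% of all probe sets) and 3 for KO minus WT under AngII (2.97%). For the averaged genotype difference the count became 0 (5.02%). The count for KO minus WT under PBS was 5 with repeated quantile normalisation, where 5.82% of all probe sets reached the threshold. It was 4 with only the groups compared, for which the share of all is not given here. With array weights the counts were 11 for KO minus WT under AngII, 6 for AngII averaged and 4 for genotype averaged. The shares of all probe sets in those fits were 25.5%, 24% and 24.1%. With all probe sets of a gene averaged, Bcl2l11 stood at -0.46 for AngII in KO and Foxo1 at -0.12 for KO minus WT under AngII. The causes were not tested. Groups of 2 or 3 arrays and 6 residual degrees of freedom limit every value, and for KO AngII the batch rests on 1 array.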

Other observations

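Other pathways known to act on the same targets gave 0 called genes in the comparisons described here. Of 17 measured hypoxia targets, the group to which Bnip3 belongs, 14 lay below 0 for KO minus WT under AngII and 16 under PBS, with medians of -0.27 and -0.32 log2; with the spike-in batch as a block the medians were 0.13 and -0.18. An unadjusted p under 0.05 was reached by 4 and by 1 of them. Over all 18193 genes such a p was reached by 6.63% under AngII and 5.75% under PBS, and 49.1% and 50.6% lay below 0. Of 12 measured p53 targets, which include neighbours of Gadd45a, 10 lay below 0 for KO minus WT under AngII and 11 under PBS (medians -0.14 and -0.15, blocked -0.19 and -0.19). Of 15 measured glucocorticoid-responsive genes, a hormone class that induces Fbxo32 and Trim63 in skeletal muscle, the median KO minus WT difference was -0.18 under AngII (blocked 0.15) and -0.27 under PBS (blocked -0.05), and 3 and 5 of them had an unadjusted p under 0.05, all lower in KO. Their median AngII minus PBS difference was 0.10 in KO hearts and -0.03 in WT hearts. Each median stands beside one of -0.01 to 0.00 over all genes.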
